A study of Homo sapiens with 23 samples.

Results

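Of the 11277 rows in the V5 peak list of MCF10A cells overexpressing wild-type p53 (WTOE), 5370 (47.6%) lay on 1q, 5q, 8q and chromosome 20. They are all rows on chromosome 20 and those starting at or beyond 143.0 Mb on chromosome 1, 50.0 Mb on chromosome 5 and 45.2 Mb on chromosome 8 (GRCh38). 1q held 2465 of them, 5q 1085, 8q 748 and chromosome 20 held 1072. Another 5512 rows lay elsewhere on chromosomes 1 to 22 and X, and 395 on the Y chromosome or unplaced scaffolds. The 4 arms were selected on the measured density of this same list, so its density, spacing, fold and background there are given as a description and without a test.

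The cells are MCF10A, an established line of untransformed epithelium from the breast. The study made stable lines by lentiviral transduction, with wild-type p53 in pLX304 (WTOE) or missense p53 in pLenti4/V5-DEST, each with a V5 tag at its C-terminus. V5 ChIP-seq was listed for WTOE and the Y220C, R273C, R273H and Y234C mutants, each against its own input DNA, and RNA-seq for 13 lines: WTOE, 10 missense mutants, WTKD with p53 knocked down, and the parental WT. There was 1 library per line and assay, all cells were untreated, and every line keeps its endogenous wild-type p53. The vectors differ between WTOE and the mutants, and a V5 ChIP of the parental line is not analysed here. Y234C was the mutant whose protein was not raised on the study's western blots.

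p53 is a transcription factor that binds as a tetramer to a pair of decamers in DNA and switches on genes of cell cycle arrest, DNA repair and apoptosis. The MCF10A genome is near-diploid with a few gained segments, among which 1q, parts of 5q, 8q around MYC, and chromosome 20 are known. A region present in more copies gives more fragments in ChIP and input alike. Peak calling sets the ChIP pileup, the number of fragments over a base, against a local background estimated from input. The question here is whether the WTOE peaks follow these segments, by spacing and fold against the other arms and by the mutant lists.

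Some members with a p53 decamer within 150 bp of the summit are shown first, since p53 is known to bind this sequence as a pair. The highest-fold region of 1q held a pair of abutting decamers. Their middles lay 12 and 2 bp before the region's summit, and the latter decamer covers the summit. This region was the member of highest fold on the 4 arms. It lay at chr1:181134917-181135439, between genes, 46.5 kb from the start of IER5, an immediate early response gene, with a pileup of 41 fragments over a background of 4.34 and a fold of 7.86. The other regions shown are among the highest by fold on 1q, 5q and chromosome 20 that hold the decamer. Each holds a single one, at folds of 5.09 on 1q, 4.88 and 4.52 on 5q, and 4.18 on chromosome 20. The position of its middle from the summit was 68 bp in LSP1P5, -1 in SGCD, 10 in GUSBP3 and -130 in SLC13A3, where negative means before the summit. The stretches shown for LSP1P5 and SLC13A3 do not reach the summit. No 8q sequence is shown. The capitals mark the decamers, and the sequences are the plus strand of the GRCh38 reference.
1q, IER5 side (chr1:181135112-181135191): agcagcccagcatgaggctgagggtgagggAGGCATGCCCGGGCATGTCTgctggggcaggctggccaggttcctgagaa
1q, pseudogene LSP1P5 (chr1:144719347-144719416): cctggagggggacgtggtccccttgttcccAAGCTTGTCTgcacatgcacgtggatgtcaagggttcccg
5q, intron of SGCD (chr5:156361084-156361153): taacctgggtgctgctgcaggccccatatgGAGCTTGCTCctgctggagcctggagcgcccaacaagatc
5q, pseudogene GUSBP3 (chr5:69642122-69642191): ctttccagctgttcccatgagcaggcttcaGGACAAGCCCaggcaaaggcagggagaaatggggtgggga
20, intron of SLC13A3 (chr20:46577949-46578004): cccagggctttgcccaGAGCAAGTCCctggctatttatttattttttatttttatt

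The 4 arms hold 13.8% of the sequence compared and carried 13.4 WTOE peaks per Mb, against 2.196 per Mb elsewhere. The ratio was 6.10 (95% interval 5.88 to 6.34). Intervals here cover counting error only, since there is no replicate library. 1q carried 23.3 peaks per Mb, chromosome 20 carried 16.8, 5q carried 8.26 and 8q carried 7.50. Of 45 arms compared, 1q, 20, 5q and 8q ranked 2, 3, 5 and 6. The least dense of those chosen was thus 8q, and the densest large arm left out was 19q with 6.61 peaks per Mb, then 19p with 5.94 and 16p with 5.70. The short arms of chromosomes 21 and 22, made up largely of repeats, carried 39.7 and 11.7 per Mb over 5.49 and 3.68 Mb of sequence and were not chosen.

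**Figure D1:**
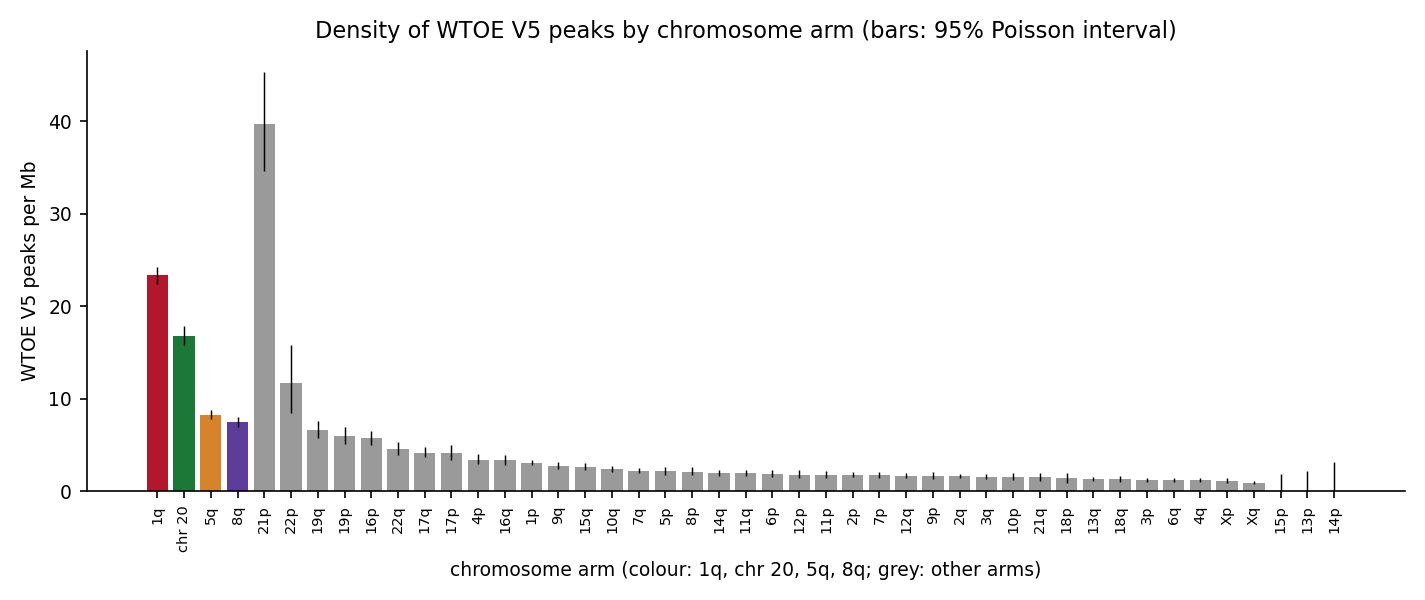
WTOE V5 peaks per Mb of sequence for each chromosome arm, with 95% Poisson intervals. 1q (23.3), chromosome 20 (16.8), 5q (8.26) and 8q (7.50) are coloured, and the other arms are grey, with the short arms of 21 (39.7) and 22 (11.7) highest and 19q (6.61) next.

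Gene content did not order the arms in the same way. The 4 arms held 6.67 protein coding genes per Mb, against 6.89 elsewhere. Peaks per coding gene were 2.01 on the 4 arms and 0.319 elsewhere. 19q and 19p, the arms richest in genes with 25.8 and 24.6 coding genes per Mb, carried 0.256 and 0.242 peaks per gene, whereas 1q carried 2.51, chromosome 20 carried 1.96, 8q carried 1.79 and 5q carried 1.49.

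Peaks were not spread evenly along the arms. Of 106 1-Mb bins on 1q, all held a peak, with a median of 15 peaks and a highest count of 173. On chromosome 20, 60 of 64 bins held a peak, with a median of 13. On 5q and 8q, 95 of 131 and 69 of 100 bins held one, and the median was 2 peaks on both. The stretches below were drawn after the counts were seen. On 5q, 932 of 1085 peaks (85.9%) lay beyond 130 Mb, at 18.1 per Mb, against 1.91 per Mb from 50 to 130 Mb. On 8q, 356 of 748 peaks lay beyond 140 Mb, at 70.1 per Mb, with 8.32 per Mb from 115 to 140 Mb, the stretch that holds MYC, and 2.64 per Mb nearer the centromere. 1q carried 33.0 peaks per Mb beyond 200 Mb and 15.05 per Mb before it. Chromosome 20 carried 22.3 per Mb beyond 30 Mb and 10.2 per Mb in its first 25 Mb. The low-density stretches of 5q and 8q were thus near the 2.196 per Mb of other chromosomes, whereas both stretches of 1q and of chromosome 20 were above it.

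Gene density and GC content moved with some of these stretches, and their part in the counts was not tested. The end of 8q held 20.9 coding genes per Mb at 52.5% GC, against 3.44 per Mb at 38.3% nearest the centromere, and the end of 5q held 8.76 at 42.3%, against 3.45 at 37.9%. On 1q the denser stretch had fewer genes, 7.86 per Mb against 10.5. Per coding gene, the peaks were 3.36 at the end of 8q, 2.89 around MYC and 0.767 nearest the centromere. They were 2.07 and 0.554 on the outer and inner 5q, 4.19 and 1.43 on the outer and inner 1q, and 2.11 and 1.44 beyond 30 Mb and in the first 25 Mb of chromosome 20. All 9 values were above the 0.319 of other chromosomes.

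**Figure D2:**
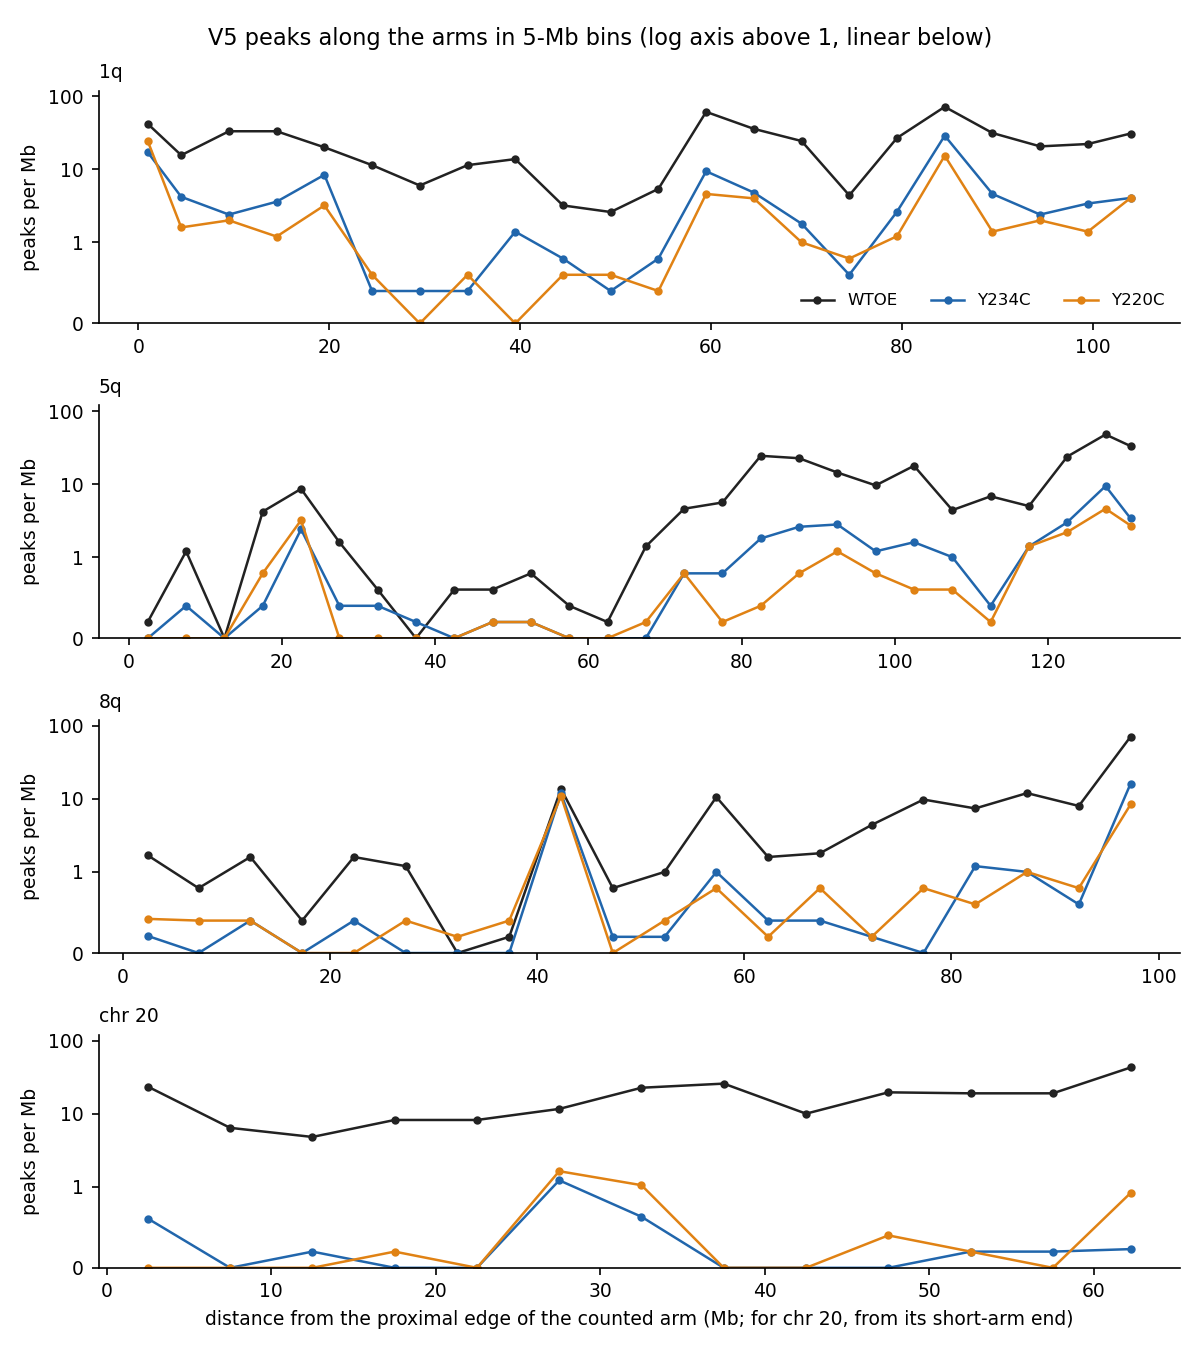
V5 peaks per Mb in 5-Mb bins along 1q, 5q, 8q and chromosome 20 for the WTOE, Y234C and Y220C lists, on an axis that is logarithmic above 1 and linear below it. The Y234C and Y220C lines run below WTOE except in a few sparse bins of 5q and 8q, with high bins at similar places on 1q and distal 5q and 8q. They stay under 2 per Mb on chromosome 20, where WTOE stays above 4.

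Part of the 8q count came from a single repeat array. A block of 186 kb at chr8:85642777-85828467, with 11 annotated genes and pseudogenes of the REXO1L family, held 64 WTOE peaks. The same block held 59 peaks in the Y234C list, 54 in Y220C, 31 in R273C and 117 in R273H. The WTOE peaks there had a median background of 14.7 fragments, against 4.10 for all 8q peaks.

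Peaks lay closer together on the 4 arms together than elsewhere, but spacing on the single arms did not follow the order of their densities. The median distance between neighbouring summits was 16.3 kb on the 4 arms (15.3 to 17.4) and 114.7 kb elsewhere (106 to 124). It was 12.9 kb on 1q, 13.3 kb on 8q, 20.0 kb on 5q and 21.9 kb on chromosome 20. Gaps over 1 Mb made up 1.10% of gaps on the 4 arms and 11.4% of those elsewhere.

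Fold enrichment over the 4 arms together was not higher than elsewhere. The median fold was 3.06 on the 4 arms (3.05 to 3.08) and 3.08 elsewhere. It was 2.97 on 1q, 3.09 on 5q, 3.08 on 8q and 3.16 on chromosome 20, whose interval, 3.08 to 3.20, lay just above the value elsewhere. The median -log10 q was 2.09 in both groups, not far above the authors' threshold of q = 0.05. The peaks were shallow. The median pileup was 16 fragments on the 4 arms and 14 elsewhere, and the lowest was 12 in both. Members reached a fold of 7.86 at most and a pileup of 114, against 9.66 and 1465 elsewhere. A fold of 5 or more was seen in 10 of 5370 members and in 27 of the 5512 peaks elsewhere.

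The groups stood apart in background. MACS2 takes as background the larger of the genome-wide mean and the local input, so a peak above the floor of 3.55 fragments has local input above the genome mean. This was so for 83.4% of the members (82.3 to 84.3) and for 37.2% of peaks elsewhere (35.9 to 38.5). By arm it was 95.9% on 1q, 80.3% on 5q, 73.9% on 8q and 64.2% on chromosome 20, ranks 2, 4, 5 and 6 of the 42 arms with peaks. On the opposite arms it was 59.4% on 5p, 41.5% on 8p and 36.4% on 1p. The median background on 5p, 9.28 over 106 peaks, was above that of any of the 4 arms. The median background was 5.26 fragments on 1q, 4.10 on 8q, 4.04 on 5q and 3.80 on chromosome 20, which are 1.48, 1.16, 1.14 and 1.07 times the floor. On 1q it was 5.54 beyond 200 Mb and 4.34 before. Within 5q and 8q the order ran the other way, with 4.02 at the dense end of 5q against 4.26 before 130 Mb, and 3.87 at the dense end of 8q against 4.30 around MYC and 4.64 nearest the centromere. Nearest the 8q centromere, 64 of the 184 peaks lay in the REXO1L block, at a median of 14.7. The other 5-Mb bins with peaks there had medians of 3.55 to 4.71. Before 130 Mb on 5q, the bins from 65 to 70 and 70 to 75 Mb held 21 and 43 of 153 peaks, both at 4.64. Other bins with peaks there had medians of 3.55 to 4.58. These values were read only at called peaks, and input coverage between peaks was not analysed here.

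**Figure D3:**
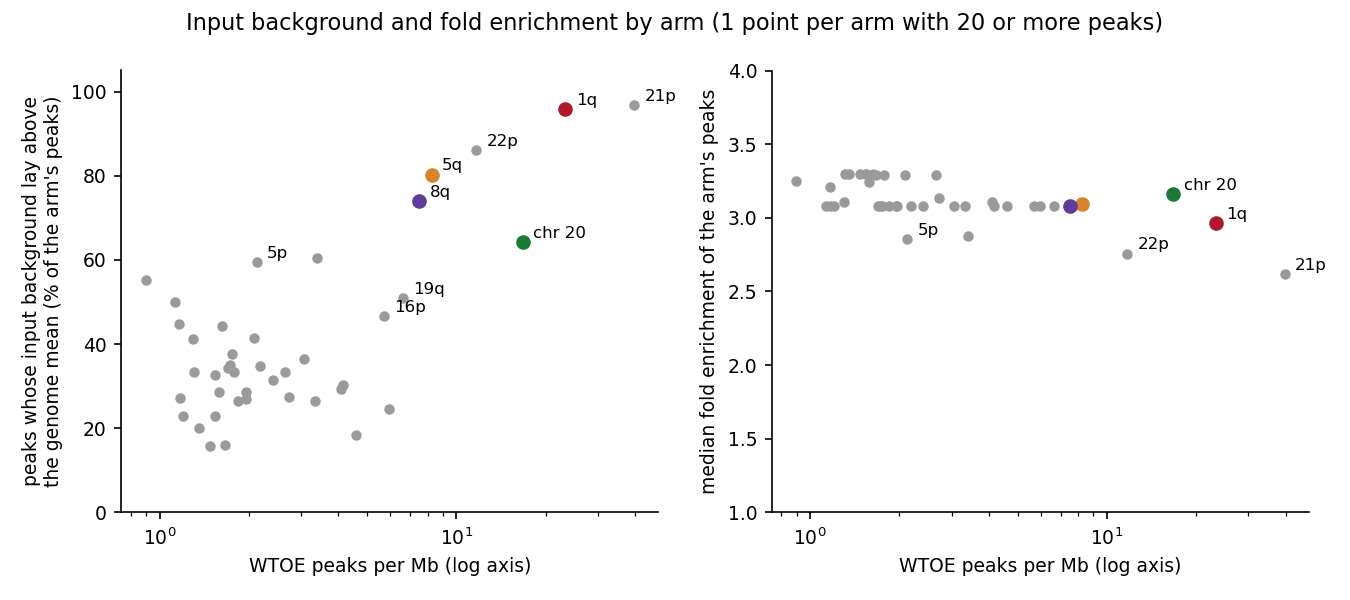
Left, the percentage of an arm's WTOE peaks whose input background lay above the genome mean, and right, their median fold enrichment, each against WTOE peaks per Mb on a log axis, with 1 point per arm of 20 or more peaks. 1q (95.9%), 5q (80.3%), 8q (73.9%) and chromosome 20 (64.2%) sit at the upper right on the left, while on the right their median folds, 2.97 to 3.16, sit among those of sparse arms.

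At the floor the members' median fold and pileup were slightly above those elsewhere. The 894 members at the floor had a median fold of 3.30 and a median pileup of 14, against 3.08 and 13 for the 3463 peaks at the floor elsewhere. Above the floor the medians were 3.01 and 17 for 4476 members, and 2.98 and 17 for 2049 peaks elsewhere.

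The mutant lists give the arms' density in 4 other ChIP libraries, which did not choose the arms. Because these lists hold many peaks beside centromeres, the comparison is given with 5 Mb on either side of each centromere left out. This took nothing from 1q, whose counted part starts at 143.0 Mb. Off the 4 arms it left 5412 of 21961 R273H peaks and 86 of 394 R273C peaks. On that basis the ratio of the 4 arms to elsewhere was 6.49 in WTOE (6.24 to 6.75), 6.47 in Y234C (5.84 to 7.16), 5.30 in Y220C (4.70 to 5.98), 4.67 in R273C (3.34 to 6.51) and 1.64 in R273H (1.54 to 1.74). The lowest background in the R273H list was 0.660 fragments, against 2.84 in Y234C, 2.95 in Y220C, 3.29 in R273C and 3.55 in WTOE. The ratios do not account for this difference between the lists. Over all rows, with those on the Y chromosome or unplaced scaffolds counted too, the 4 arms held 37.4% of Y234C and 33.3% of Y220C peaks. They held 10.4% of R273C and 11.04% of R273H peaks, against 47.6% of WTOE peaks. The R273C ratio rests on 66 peaks on the arms, of which 31 lay in the REXO1L block and 20 in the first 2 Mb of 1q, and 86 elsewhere.

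1q, 5q and 8q were dense in the Y234C and Y220C lists as well. On 1q the ratio was 11.1 in WTOE, 13.4 in Y234C, 10.2 in Y220C, 7.94 in R273C and 2.71 in R273H. Of the R273H peaks on 1q, 172 of 667 lay before 145 Mb, as did 76 of the 2465 WTOE peaks. With all positions kept, the 1q ratio was 10.6 in WTOE, 1.87 in R273C and 0.722 in R273H. On 5q, with centromeres left out again, the ratio was 4.04 in WTOE, 3.96 in Y234C, 2.99 in Y220C and 1.32 in R273H, and R273C had 2 peaks. On 8q it was 3.71 in WTOE, 5.59 in Y234C, 5.57 in Y220C, 9.41 in R273C and 1.36 in R273H. The mutant values on 8q rest in part on the REXO1L block. Without it, a choice made after the data were seen, the 8q ratio was 3.39 in WTOE (3.13 to 3.68), 3.66 in Y234C (2.97 to 4.47), 3.31 in Y220C (2.58 to 4.20), 0.571 in R273C (0.0681 to 2.13, from 2 peaks) and 0.835 in R273H (0.717 to 0.968). 8q then stood above elsewhere in WTOE, Y234C and Y220C and below it in R273H, and the 2 R273C peaks left do not settle a direction. Within 5q the stretch beyond 130 Mb carried 18.1 peaks per Mb in WTOE, 2.54 in Y234C and 1.32 in Y220C, against 1.91, 0.388 and 0.350 per Mb before it in these lists. Within 8q the stretch beyond 140 Mb carried 70.1 per Mb in WTOE, 15.9 in Y234C and 8.27 in Y220C.

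Chromosome 20 stood apart. It carried 930 WTOE peaks away from its centromere, 8.15 times the density elsewhere (7.59 to 8.74). The Y234C list had 7 peaks there, a ratio of 0.402 (0.161 to 0.833). Y220C had 10 peaks with a ratio of 0.732 (0.349 to 1.35), and R273H had 96 with 0.760 (0.615 to 0.930). R273C had none, which allows a ratio of up to 1.88. No mutant interval overlapped that of WTOE, and for the other arms at least 1 mutant interval lay at or above a ratio of 2. With the centromere included, R273H had 1164 peaks on chromosome 20, of which 1040 fell in the single 5-Mb bin from 25 to 30 Mb. Whether the lists differ beyond the spread of repeated libraries cannot be tested with 1 library per line, and vector and clone history cannot be told apart from the p53 allele.

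**Figure D4:**
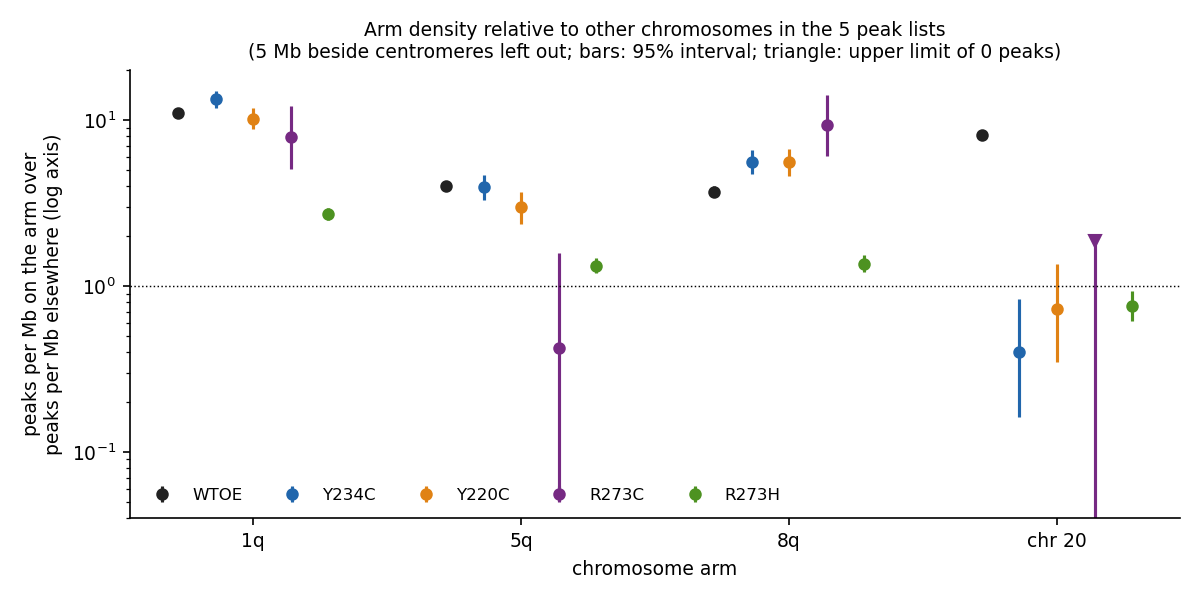
Peaks per Mb on each arm over peaks per Mb elsewhere in the WTOE, Y234C, Y220C, R273C and R273H lists, on a log axis, with 95% counting intervals and 5 Mb beside centromeres left out. On chromosome 20 WTOE is at 8.15 and the 4 mutant lists are at or below 0.760, whereas on 1q all 5 lists are above 1. The counted part of 1q starts beyond these 5 Mb, so no peaks were left out there.

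A smaller share of WTOE peaks overlapped a mutant peak on the dense arms than elsewhere. Of the members, 473 (8.81%) overlapped a peak of any mutant list by 1 bp or more, against 17.6% of WTOE peaks elsewhere, a difference of -8.83 percentage points (-10.1 to -7.57). With the centromeres and the short arms of 21 and 22 left out, the shares were 8.87% and 14.05%. On chromosome 20 it was 20 of 1072 peaks (1.87%). Read the other way, 32.6% of the 803 Y234C peaks on the 4 arms overlapped a WTOE peak, against 48.6% elsewhere, and 36.1% of the 524 Y220C peaks there did, against 50.5% elsewhere. In the other lists the share was higher on the 4 arms in R273H, and in R273C the intervals overlapped. It was 12.3% of the 2795 R273H peaks on the 4 arms (11.1 to 13.5), against 4.47% elsewhere (4.20 to 4.75), and 44.7% of the 76 R273C peaks there (34.1 to 55.9), against 39.8% elsewhere (35.1 to 44.8).

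The p53 decamer, a degenerate 10-base sequence whose pattern is the same on both strands, was searched within 150 bp of each summit. It was found at 377 of 5370 members, 7.02% (6.37 to 7.74), and at 7.003% of WTOE peaks elsewhere, a difference of 0.0176 points (-0.943 to 0.980). In windows of the same length 5 kb away, it was found at 8.57% of members and 7.37% of peaks elsewhere. Members together thus held it less often at the summit than 5 kb away, by 1.55 points (0.532 to 2.56). The summit share minus the 5-kb share was -2.19 points on 1q, -1.38 on 5q, -2.61 on chromosome 20 and 1.87 on 8q. Intervals of this difference treat the windows as independent, although both come from the same peaks. For comparison, 7.98% of all 301-base windows tiled over the 4 arms, 7.87% of those tiled elsewhere and 5.57% of those at coding gene starts held it. The median GC content of summit windows was 53.8% on the 4 arms, against 47.2% at 5 kb, so the windows differ in composition.

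By arm, the share was 6.13% on 1q, 7.10% on 5q, 7.09% on chromosome 20 and 9.76% on 8q. The 8q share was above that of peaks elsewhere by 2.76 points (0.706 to 5.18), and by 2.35 points (0.270 to 4.85) without the REXO1L block. Within 100 bp this difference was 2.65 points (0.892 to 4.82). Its interval reached below 0 within 250 bp (1.71, -0.685 to 4.44) and for peaks with a -log10 q of at least 2 (1.93, -0.658 to 5.23). The share was 12.8% in 8q peaks of fold under 3 and 7.34% in those of fold 3 to 4. At 5 kb on 8q it was 7.89%, and the difference between summit and 5 kb had an interval from -1.02 to 4.78 points. Among the 10 members of fold 5 or more, 3 held a decamer, all on 1q, against 3 of 27 peaks elsewhere.

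A pair of decamers within 13 bp of each other was rare. It was found at 4 members and at 5 peaks elsewhere, against 1 member and 2 peaks 5 kb away. Besides the IER5-side peak, these members lay in an intron of ZNF678 on 1q (fold 3.26), in an intron of MYT1, a neural zinc finger gene, on chromosome 20 (fold 3.51), and in the promoter of an unnamed transcript 41.2 kb from KLHL38 on 8q (fold 2.81). The IER5-side peak was the only one of the 4 to overlap mutant peaks, from the R273C, R273H and Y234C lists. IER5 RNA was 3.28 log2(TPM+1) in the library labelled WTOE, against 4.48 in WT and 1.09 to 4.93 over the other 12 lines.

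The other leading peaks by fold lacked the decamer except for LSP1P5 on 1q and a region of chr8:142815614-142816876, 18.4 kb from GML, with a pileup of 33 and a fold of 4.73. The top 3 of chromosome 20 were in the promoter of an unnamed transcript 40.6 kb from SLC23A2, a vitamin C transporter (fold 5.71, pileup 25), in an intron of PHF20, a chromatin reader known to bind p53 (5.70, 27), and in the promoter of SNHG11, a host gene of small nucleolar RNAs (5.14, 23). Those of 5q lay within IL6ST, the signalling receptor of the interleukin-6 family (5.16, 23), in an intron shared by P4HA2 and PDLIM4 (5.06, 22) and 30.6 kb from JADE2 (5.06, 22). Those of 8q also included an intron of FER1L6 (4.71, 22) and one of AGO2, the slicer of RNA interference (4.62, 20). The remaining 1q region lay in an intron of PCNX2 (5.28, 28). Apart from the IER5-side, LSP1P5 and GML regions, none overlapped a mutant peak.

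The split of peaks over gene features differed from elsewhere by at most 1.61 points on the 4 arms together, and by more on single arms. Summits in promoters, from 2500 bp before to 100 bp after a transcript start, made up 19.3% of members and 20.9% of peaks elsewhere, a difference of -1.61 points (-3.11 to -0.101). For protein coding genes the shares were 12.3% and 12.2%. Introns held 44.7% of members and 45.5% of peaks elsewhere, and intergenic sequence 26.9% and 25.8%. Untranslated regions held 3.28% and 2.36%, a difference of 0.919 points (0.298 to 1.55). On 5q, introns held 5.65 points more (2.40 to 8.89) and promoters 4.13 points less (-6.50 to -1.56 as a difference) than elsewhere, and on chromosome 20 intergenic sequence held 5.53 points more (2.58 to 8.59).

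All 9 basal mammary markers were present in the RNA library labelled WTOE, at 5.27 to 10.9 log2(TPM+1), and the luminal hormone receptors, endothelial and blood markers were at 0, as were 3 of 4 fibroblast markers.

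RNA of well expressed genes, those with a mean of at least 4 over the lines, was compared between the library labelled WTOE and the median of the other 12 lines. This choice of genes was made after the data were seen. On chromosome 20 the median difference over 191 genes was 0.39 on the log2 scale (0.28 to 0.51), which is 0.34 above the median over other chromosomes and the highest of the 13 lines. The next line was R248Q at 0.26, and Y234C and Y220C were at 0.09 and 0.0037. Against WT alone the chromosome 20 value was 0.22. On 8q the library labelled WTOE stood 0.30 above the other chromosomes, second to Y220C at 0.39, with Y234C at -0.26. On 1q and 5q it stood at -0.11 and -0.14, within the range of the other lines on 1q, -0.15 to 0.06, and on 5q, -0.32 to 0.19. The Y234C and R273H libraries stood apart, with medians over other chromosomes of -1.06 and -0.64, beside 0.05 for the library labelled WTOE. A gain shared by all lines would not show in a comparison between lines.

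RNA and peak density overlapped only in part in the arms they ranked highest. Of 39 arms with 30 or more such genes, the 10 highest in the library labelled WTOE were both arms of chromosomes 7, 8, 11 and 19, 13q and chromosome 20, at 0.30 to 0.51 above the other chromosomes, and the next arm, 10p, was at 0.0015. Chromosome 20, 8q, 19q and 19p among them are also dense in peaks, at 16.8, 7.50, 6.61 and 5.94 per Mb. The other 6, 13q, 11p, 7p, 11q, 8p and 7q, carried 1.31 to 2.18 WTOE peaks per Mb, and 27.0% to 41.5% of their peaks had a background above the floor. 1q, the densest large arm, ranked 28 and 5q ranked 33. Along 5q the RNA difference was -0.13 beyond 130 Mb and -0.17 before it, relative to the other chromosomes. Along chromosome 20 it was 0.39 beyond 30 Mb and 0.22 in the first 25 Mb. On 1q it was -0.069 beyond 200 Mb and -0.15 before it. On 8q it was 0.36 nearest the centromere, the stretch sparsest in peaks, 0.16 from 115 to 140 Mb and 0.22 beyond 140 Mb. These rest on 90, 33 and 32 genes. Intervals of the medians before subtraction of the other chromosomes overlapped, at 0.29 to 0.57, 0.014 to 0.54 and -0.086 to 0.47.

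**Figure D5:**
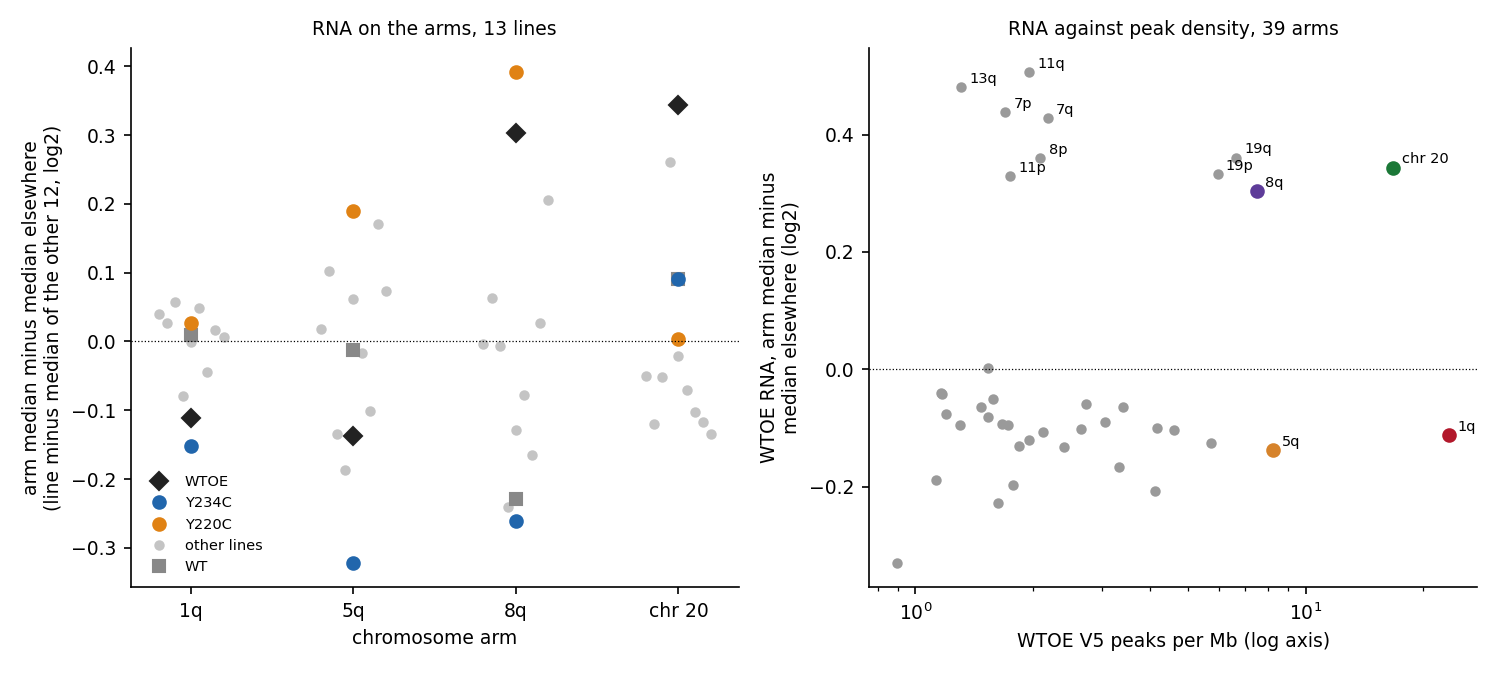
Left, median RNA difference of each of 13 lines from the median of the other 12 on 1q, 5q, 8q and chromosome 20, relative to other chromosomes (log2). Right, the same value for the library labelled WTOE against WTOE peaks per Mb (log axis), 1 point per arm. WTOE is highest of the lines on chromosome 20 (0.34), and on the right 1q and 5q are dense but below 0 while 13q, 11q, 7p and 7q are sparse and above 0.4.

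Of 880 genes with a promoter peak on the 4 arms, 833 were in the RNA table and 399 passed the filter, a log2(TPM+1) no lower than 1 in 3 or more lines. Of these, 73 (18.3%, 14.8 to 22.4) were higher by 2-fold or more in the library labelled WTOE than in WT, and 74 (18.5%, 15.0 to 22.7) were lower. Over all 14884 genes that passed the filter, 20.4% were higher and 18.0% lower, so both shares were close to the background. The median difference was 0 in the 399 genes and in all genes. By arm, 23 of 83 genes with a promoter peak on chromosome 20 were higher (27.7%, 19.2 to 38.2), beside 25.7% of all genes tested there. Fold changes are on the log2(TPM+1) scale and understate those of low genes.

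The genes with the largest differences on each arm were mixed in direction. On 5q, CXXC5, a zinc finger regulator of Wnt signalling, was 0.59 in the library labelled WTOE against 5.48 in WT, and DPYSL3, which acts on the cytoskeleton, was 0.09 against 4.18. On 8q, TOP1MT, the mitochondrial topoisomerase, was 6.42 against 2.94, above all 12 other lines (1.81 to 5.81), and PSCA, a surface antigen, was 2.86 against 6.10, below all of them (3.52 to 10.4). On chromosome 20, JPH2, a membrane junction protein, was 4.35 and ISM1, a secreted protein, was 3.63, and both were listed at 0 in WT. On 1q, SERTAD4-AS1 was 1.25 against 7.39, and the small nucleolar RNA SNORA14B was 6.09 and listed at 0 in WT. The others by the same rule were AL359921.2 on 1q, AL035071.2 on chromosome 20, AC008972.2 on 5q and AC040970.1 on 8q.

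Of 52 known p53 targets listed, 11 lie on the 4 arms and 3 of them had a promoter peak (27.3%, 9.75 to 56.6), beside 18.6% of all 2674 protein coding genes there. Elsewhere 2 of 41 had one, beside 3.72% of coding genes. The share among targets on the 4 arms could not be told from that of all coding genes at this number. PHLDA3, which restrains Akt, had a peak at chr1:201468675-201469182 with a pileup of 16 over a background of 5.65 (fold 2.56, -log10 q 1.42), without a decamer and overlapped by a Y234C peak. Its RNA was 5.84 in the library labelled WTOE and 4.83 in WT, with 3.11 to 5.22 over the other 12 lines. RRM2B, a subunit of ribonucleotide reductase for DNA repair, had a peak at chr8:102238527-102238947 (pileup 15, fold 2.99), and its RNA was 5.49 against 5.41 in WT. CYFIP2, linked to p53-dependent apoptosis, had 2 peaks at starts of inner transcripts on 5q, of folds 2.65 and 3.01, the first with a decamer, and its RNA was 4.90 against 5.47.

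Of the 11 targets on the arms, 4 were past 2-fold higher in the library labelled WTOE than in WT and none was past 2-fold lower, with a median of 0.47 beside 0 over all genes, of which 20.4% were higher and 18.0% lower. Of the 38 targets elsewhere that passed the filter, 8 were higher and 10 lower, with a median of 0.02. CDKN1A, a cell cycle inhibitor on 6p with a WTOE peak in its promoter, was among those lower, at 6.46 against 7.78. Those higher on the arms were the growth inhibitor BTG2 (4.14 against 2.99), PHLDA3, ATF3, a stress transcription factor (5.43 against 2.95), and TP53INP1, a regulator of apoptosis (3.60 against 2.22). BTG2, PHLDA3 and ATF3 were above all 12 other lines. BTG2, ATF3 and TP53INP1 had their nearest member 2.81, 43.6 and 366 kb from the gene start.

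Of 32 genes of the same arms listed here for gain in breast cancer, 8 had a promoter peak (95% interval 13.3% to 42.1%), beside the 18.6% of all coding genes there. Whether each listed gene is gained in breast cancer was not checked. In RNA, 8 were past 2-fold higher in the library labelled WTOE than in WT and 2 past 2-fold lower (6.25%), with a median of 0.16 beside 0 over all genes. Over all genes 20.4% were higher and 18.0% lower. SRC, a tyrosine kinase, had a peak at chr20:37394961-37395502 with a decamer (pileup 15, fold 3.52), and its RNA was 6.43 against 3.40 in WT. E2F1, a cell cycle transcription factor, had a peak at chr20:33688009-33688307 (pileup 13, fold 2.73) and was 5.38 against 3.05. Both were above all 12 other lines. CKS1B, a cyclin-dependent kinase subunit, was 6.34 against 4.47 with a promoter peak of fold 3.02, but its median over the other 12 lines was 6.24. SETDB1, a histone methyltransferase, had 3 summits in 1 promoter, of folds 3.54 to 3.70, and was 3.64 against 4.65. MAPKAPK2, SQSTM1, PVT1 and ATAD2 also had promoter peaks and differed by less than 2-fold. MYC had no promoter peak, with its nearest WTOE summit 22.2 kb from its start, and its RNA was 8.62 against 8.91.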

How the data were processed

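The authors aligned ChIP reads to GRCh38 with Bowtie2 2.1.0, dropped unmapped and non-primary reads with SAMtools 1.7, and ran MACS2 2.1.2.20181017 on each ChIP with the line's own input at q = 0.05. HOMER 4.9.1 output was not used. The deposited fold enrichment is a ratio computed at the summit, and the deposited -log10 p and -log10 q values and the deposited score come from MACS2. For RNA, the authors aligned reads with STAR and deposited log2(TPM+1). Read depth of the RNA libraries is unknown. The paper reports high duplication in the RNA libraries. It also reports a large and variable share of mitochondrial reads, which the authors dropped before computing TPM. Duplication in the ChIP-seq data varied widely as well. None of this was accounted for in the comparisons between libraries here.

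Pileup and background were solved from the deposited fold and -log10 p, since fold is (pileup + 1) over (background + 1), with a tolerance of 0.001. This gave a whole pileup for 11277 of 11277 WTOE, 2145 of 2145 Y234C, 1574 of 1575 Y220C, 730 of 733 R273C and 25308 of 25309 R273H rows, and was tested on simulated data, as was the decamer search. Densities use sequence without N, and the other arms were split at centromere positions of the GRCh38 cytobands, entered by hand. Promoters and genes come from GENCODE 44, and no peak ran past a chromosome end. Intervals are 95% Wilson, Newcombe, exact Poisson or binomial, or order-statistic ones. No group test was made, as there is 1 library per line. Each deposited row counted as 1 peak in the main values, and several rows can share a region. Named genes and peaks are the 3 highest-fold regions per arm, promoter peaks of listed genes, and the 3 promoter-peak genes per arm with the largest RNA difference from WT. The arms, members and lists were chosen with earlier results of these data known. The level of the targeted gene in the RNA libraries, which checks their labels, is not reported here. Python 3.11.15, numpy 2.4.6, pandas 2.3.3, scipy 1.17.1, pysam 0.24.0 and matplotlib 3.10.9 were used.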

Additional observations from a re-analysis of the deposited data

How the results depend on the processing

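No paired analysis of libraries was possible because each line has 1 library per assay. The summit and 5-kb windows of a peak were compared without pairing. The WTOE density ratio, 6.10, was 6.37 over full arm lengths, 6.49 without the centromeres, 4.48 without 1q, 7.24 without 5q, 6.99 without 8q and 5.81 without chromosome 20. The difference in median fold, -0.018, was -0.18 at -log10 q of at least 2, 0.0057 without 1q and -0.060 without chromosome 20, and 0 for merged regions, so its sign rests on 1q. The median spacing of 16.3 kb was 18.3 kb for merged regions, 28.1 kb at the stricter q, 18.9 kb without 1q, 15.2 kb without 5q and 14.9 kb without chromosome 20. The share of peaks on the 4 arms without the centromeres was 51.5% for Y234C, 46.6% for Y220C, 43.4% for R273C and 21.2% for R273H, more than 1.5 times the value with them for R273C and R273H. It was 39.8% for merged Y234C regions and 30.9% for Y220C at the stricter q. The overlap of members with a mutant list, asked over 50% of the WTOE peak or by a mutant summit within 250 bp, was 3.31% and 3.95% for Y234C, 2.87% and 2.96% for Y220C, 0.317% and 0.540% for R273C, 4.73% and 4.49% for R273H, and 6.46% and 6.74% for any of them. The decamer share was 4.80% within 100 bp and 11.5% within 250 bp, and the promoter share was 17.4% within 1000 bp of a start and 12.3% for protein coding genes. Of genes with a promoter peak, 147 were past 2-fold in either direction and 64 past 4-fold (16.04%, beside 17.8% of all genes). Of 63 settings in 21 results, 23 stayed within the interval of the main value, or within 1.5 times a count. The overlap without centromeres, the decamer search and the 8q ratios without the REXO1L block and the well expressed genes were chosen after seeing the data. Precision is limited by the single library per line and by shallow peaks, with the middle 50% of members at pileups of 14 to 18.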
